A study of Mus musculus with 16 samples.

Results

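Dapl1, Igfbp4, Atp8b4, Mctp2, Vipr1 and Actn1 are genes whose transcripts were much lower in regulatory T cells (Treg) than in conventional CD4+ T cells (Tconv) of the mouse spleen. They were chosen by name from that contrast, and make up 6 of the 12798 genes tested and of the 19531 genes with a probe set of their own on the array. Where a gene had several probe sets, the one brightest on average over the 16 arrays stands for it. Vipr1 has a second probe set, so the 6 genes have 7. Because the Treg to Tconv difference chose these genes, it is described here without a test. The differences by mouse background and by reporter allele were not used to choose them, and those were tested.

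RNA came from spleen cells of male mice aged 6 weeks, sorted by flow cytometry in a double sort. Treg were CD3+ CD4+ GFP+ cells and Tconv were CD3+ CD4+ GFP- cells. The 8 groups, with 2 arrays each, were NOD fusion Treg, NOD ires Treg, B6 fusion Treg and B6 ires Treg, and the Tconv of the same 4 lines. B6 is the common laboratory strain C57BL/6, and NOD is a strain that develops autoimmune diabetes. Every mouse carried a GFP reporter at Foxp3, the gene of the transcription factor that defines Treg, so no group had an unmodified Foxp3 gene. In the fusion allele (labelled Foxp3-GFP) GFP is part of the Foxp3 protein, and in the ires allele (Foxp3-ires-GFP) the same transcript gives GFP as a protein of its own. The labels do not say whether the 2 arrays of a group came from separate mice, so p-values rest on the spread between these arrays alone, and that spread may be technical.

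The sorted cells carried the markers of their labels. All 5 Treg marker genes were higher in Treg, and their summed intensity was 10643 to 14888 on the Treg arrays and 518 to 996 on the Tconv arrays. Foxp3 ran from 11.37 to 12.16 (log2 intensity) in Treg and from 7.01 to 8.18 in Tconv, with the highest Tconv value in 1 of the 2 NOD fusion arrays. The summed level of 3 T cell genes was 6231 to 7864 in Treg and 6626 to 8527 in Tconv. The summed markers of dendritic cells, of myeloid cells, of the B lineage and of red cells and platelets overlapped between the cell types over all arrays. Within B6 the dendritic sum was 562 to 760 in Treg and 442 to 480 in Tconv, and the B lineage sum 373 to 425 in Treg and 308 to 336 in Tconv. Cd79b (0.69 ± 0.09) and Cd74 (1.00 ± 0.20) were called higher in Treg and H2-Ab1 (-0.38 ± 0.10) lower. The summed level of 7 genes of NK, CD8 T and gamma-delta T cells was 498 to 737 in Treg and 729 to 879 in Tconv. Of these 7, Klrb1c, Ncr1 and Gzma were under the filter level (log2 6.06) on every array, and of the 4 tested, Klrd1 (-2.35 ± 0.13, SE) and Cd8b1 (-0.42 ± 0.08) were called lower in Treg, Cd8a (0.23 ± 0.08) was called higher and Eomes (0.05 ± 0.10) was not called. The Treg values of Klrd1, at 3.71 to 4.53, were all under the filter level. The part of such other cells in the Treg to Tconv differences was not tested. In bulk RNA of this kind, fewer cells that carry a transcript and less of it per cell cannot be told apart.

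Naive T cells circulate through lymphoid organs under a programme of homing receptors and transcription factors such as Ccr7, Lef1 and Satb1. Treg keep part of it and add a programme of their own under Foxp3, which both induces and represses genes. The 6 genes described here belong to different protein families. Dapl1 encodes a small relative of Dap, a negative regulator of autophagy. Igfbp4 encodes a secreted protein that binds insulin-like growth factors (IGFs) and keeps them from their receptors. Atp8b4 encodes a P4-type ATPase, a family of membrane proteins that includes flippases, which move phospholipids between the leaflets of a membrane. Mctp2 encodes a membrane protein with C2 domains, modules that bind calcium and lipids in many proteins. Vipr1 encodes a receptor for the neuropeptides VIP and PACAP, which raises cyclic AMP through Gs proteins. Actn1 encodes alpha-actinin-1, which crosslinks actin filaments and ties them to adhesion sites.

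All 6 genes had a promoter sequence in the RefSeq table of build GRCm38.p6, covering 250 bases before and 50 bases after the annotated start. These windows were searched on both strands for 5 short motifs of factors active in T cells: ATCAAAG for TCF7 and LEF1, GTAAACA for forkhead factors, CACACCC for KLF factors, TTCNNNGAA for STAT factors and TGANTCA for AP-1. The 3 promoters with a match are shown, 5′ to 3′ on the gene's strand, with the match in capitals. The Dapl1 window is chr2:59484403-59484702 on the plus strand, the Igfbp4 window chr11:99040994-99041293 on the plus strand and the Atp8b4 window chr2:126491504-126491803 on the minus strand.
Dapl1: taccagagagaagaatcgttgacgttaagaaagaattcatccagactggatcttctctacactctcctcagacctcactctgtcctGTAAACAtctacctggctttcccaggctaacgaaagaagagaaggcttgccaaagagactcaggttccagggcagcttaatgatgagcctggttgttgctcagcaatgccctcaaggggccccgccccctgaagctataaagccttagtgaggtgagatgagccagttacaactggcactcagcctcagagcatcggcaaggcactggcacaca
Igfbp4: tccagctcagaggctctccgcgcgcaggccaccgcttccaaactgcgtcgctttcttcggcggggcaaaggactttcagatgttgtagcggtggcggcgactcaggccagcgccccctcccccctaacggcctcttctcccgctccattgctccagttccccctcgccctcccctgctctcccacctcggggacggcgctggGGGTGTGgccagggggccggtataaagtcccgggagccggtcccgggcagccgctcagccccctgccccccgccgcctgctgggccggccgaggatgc
Atp8b4: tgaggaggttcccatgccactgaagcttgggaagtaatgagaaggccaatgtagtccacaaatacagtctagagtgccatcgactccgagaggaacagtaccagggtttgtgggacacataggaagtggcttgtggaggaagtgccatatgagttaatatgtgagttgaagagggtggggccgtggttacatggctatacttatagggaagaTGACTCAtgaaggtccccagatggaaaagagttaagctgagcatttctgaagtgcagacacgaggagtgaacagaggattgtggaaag
Dapl1 held the forkhead letters, starting at -164 from the annotated start. Igfbp4 held the KLF letters at -48, on the opposite strand, so that they read GGGTGTG. Atp8b4 held an AP-1 match, TGACTCA, at -38. Of 32851 promoter windows of the same length, 3.65% held the forkhead letters, 7.95% the KLF letters and 7.81% the AP-1 letters. The TCF7 and LEF1 letters (3.73% of windows) and the STAT letters (8.3%) were in none of the 6 windows, and the Mctp2, Vipr1 and Actn1 windows held no match to any of the 5. The G and C content of the windows was 51% for Dapl1, 71.3% for Igfbp4, 48% for Atp8b4, 62% for Mctp2, 73.7% for Vipr1 and 68.3% for Actn1, beside a median of 52.7% over all windows.

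Between the cell types, all 8 Treg arrays lay below all 8 Tconv arrays for each of the 6 genes. Such a separation was found for 2.59% of all tested genes, and 11.9% were called lower in Treg (adjusted p under 0.05). Ordered from the lowest Treg minus Tconv difference, Dapl1, Atp8b4, Mctp2, Igfbp4 and Vipr1 stood at ranks 2 to 6 and Actn1 at rank 34. Rank 1 was Pde3b, a phosphodiesterase that degrades cyclic AMP, at -4.62, and rank 7 was Il1rl2, a cytokine receptor gene. These values chose the genes and are a description.

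Dapl1 had the largest difference of the 6. Its log2 intensity in Treg was 5.83 and 5.94 (NOD fusion), 5.85 and 6.13 (NOD ires), 5.90 and 6.40 (B6 fusion) and 6.66 and 6.82 (B6 ires). In Tconv it was 9.84 and 9.93 (NOD fusion), 9.35 and 9.41 (NOD ires), 9.98 and 10.10 (B6 fusion) and 10.02 and 10.28 (B6 ires). B6 ires Treg stood above the other 3 Treg groups without overlap, and NOD ires Tconv below the other 3 Tconv groups. Treg minus Tconv was -3.67 ± 0.08 (SE), a level 12.7-fold lower in Treg, with a gap of 2.53 between the highest Treg and the lowest Tconv array. By line, the difference was -4.00 in NOD fusion, -3.39 in NOD ires, -3.90 in B6 fusion and -3.40 in B6 ires. Only 4 of the 8 Treg arrays were above the filter level of 6.06.

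Atp8b4 was in Treg at 4.44 and 4.73 (NOD fusion), 4.26 and 4.69 (NOD ires), 4.86 and 5.14 (B6 fusion) and 5.25 and 5.32 (B6 ires). In Tconv it was at 8.34 and 8.53 (NOD fusion), 7.95 and 8.11 (NOD ires), 8.55 and 8.68 (B6 fusion) and 8.30 and 8.57 (B6 ires). In Treg the 4 B6 arrays were above the 4 NOD arrays, with the 2 NOD groups overlapping each other. In Tconv the NOD ires group was below the other 3, while both B6 groups and the NOD fusion group formed an overlapping series. The Treg minus Tconv difference of these values was -3.54 ± 0.08. None of the 8 Treg arrays passed the filter level, so Atp8b4 entered the tests through Tconv, and no fold is given against Treg levels this low.

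Mctp2 was likewise under the filter level on all 8 Treg arrays. Its Treg values were 4.97 and 5.01 (NOD fusion), 5.28 and 5.82 (NOD ires), 4.83 and 5.32 (B6 fusion) and 5.14 and 5.24 (B6 ires). Its Tconv values were 8.49 and 8.53 (NOD fusion), 8.36 and 8.46 (NOD ires), 8.39 and 8.42 (B6 fusion) and 8.17 and 8.37 (B6 ires). NOD ires Treg had the highest Treg mean, although its 2 arrays were 0.54 apart, and the other 3 Treg groups overlapped their neighbours in order. The Tconv arrays lay within a narrow band, and the difference of these values was -3.20 ± 0.08, again with no fold given because of the low Treg levels.

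Igfbp4 remained well above the filter level in Treg. It was at 8.39 and 8.50 (NOD fusion), 8.04 and 8.56 (NOD ires), 7.74 and 8.23 (B6 fusion) and 8.69 and 8.82 (B6 ires) in Treg. In Tconv it was at 11.40 and 11.55 (NOD fusion), 11.20 and 11.68 (NOD ires), 11.18 and 11.24 (B6 fusion) and 11.30 and 11.37 (B6 ires). B6 ires Treg was the highest Treg group and B6 fusion Treg had the lowest mean, overlapping NOD ires Treg. In Tconv the NOD ires arrays spanned nearly the whole range. The difference was -3.00 ± 0.09, 7.97-fold lower in Treg, and by line it was -3.03 in NOD fusion, -3.14 in NOD ires, -3.22 in B6 fusion and -2.58 in B6 ires.

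Vipr1 varied least among the Treg groups, whose neighbours in order all overlapped. Its Treg values were 6.41 and 6.47 (NOD fusion), 6.70 and 6.78 (NOD ires), 6.35 and 6.79 (B6 fusion) and 6.68 and 6.81 (B6 ires). Its Tconv values were 9.37 and 9.68 (NOD fusion), 9.49 and 9.57 (NOD ires), 9.24 and 9.37 (B6 fusion) and 9.40 and 9.45 (B6 ires). The difference was -2.82 ± 0.07, 7.08-fold lower in Treg. The second Vipr1 probe set gave -1.42 ± 0.06. It ran from 6.71 to 6.81 in Treg and from 7.95 to 8.42 in Tconv, so both probe sets separated the cell types and differed in the size of the difference.

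Actn1 stood apart from the other 5 genes by a smaller difference. In Treg it was at 8.23 and 8.36 (NOD fusion), 8.86 and 9.11 (NOD ires), 8.41 and 9.22 (B6 fusion) and 9.23 and 9.42 (B6 ires). In Tconv it was at 9.85 and 10.05 (NOD fusion), 10.02 and 10.14 (NOD ires), 10.73 and 10.74 (B6 fusion) and 10.71 and 10.78 (B6 ires). The lowest Tconv array, of the NOD fusion line, was 0.43 above the highest Treg array, of the B6 ires line. The 4 B6 Tconv arrays were above the 4 NOD Tconv arrays. The difference was -1.52 ± 0.09, 2.87-fold lower in Treg, and was -1.65 in NOD fusion, -1.09 in NOD ires, -1.92 in B6 fusion and -1.43 in B6 ires.

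**Figure D1:**
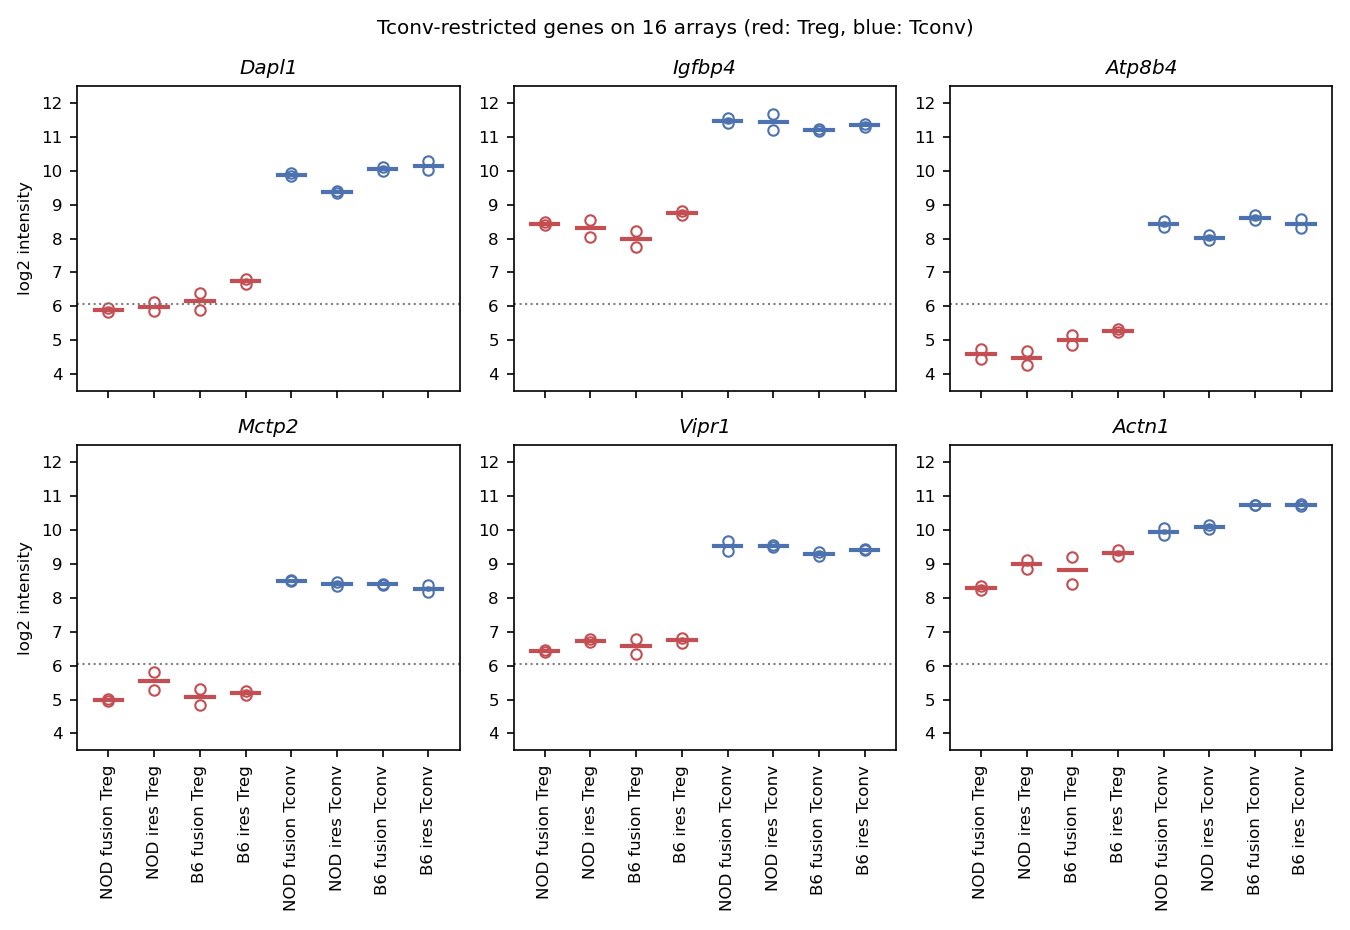
Log2 intensity of the 6 genes on each of the 16 arrays, by group, with Treg groups in red on the left of each panel and Tconv groups in blue on the right; circles are arrays, bars are means of 2 and the dotted line is the filter level of 6.06. Every Treg circle is below every Tconv circle in each panel, with the smallest gap, 0.43, for Actn1.

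Between the NOD and B6 backgrounds, Dapl1 and Actn1 fell in NOD Tconv, and Dapl1, Atp8b4 and Actn1 fell in NOD Treg. Igfbp4, Mctp2 and Vipr1 did not pass the test in either cell type, nor did Atp8b4 in Tconv. Of all tested genes, 15.9% were called between NOD and B6 in Tconv, with 6.49% lower in NOD, and 21.0% in Treg, with 11.2% higher and 9.82% lower in NOD. The 2 of 6 and 3 of 6 members called stand beside those shares, and 1 of the 3 in Treg, Atp8b4, was under the filter level on every Treg array. The lower share moved with the scaling: calls split into 1202 higher and 831 lower in Tconv and 1433 and 1257 in Treg as deposited, and into 1934 and 368, and 1650 and 753, with each array centred on its median.

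Actn1, the actin crosslinker, had the largest background difference in Tconv, at -0.73 ± 0.13 (limma, adjusted p = 0.00116), 1.65-fold lower in NOD. It was negative in both lines, at -0.78 in fusion and -0.67 in ires mice, and the NOD and B6 Tconv arrays did not overlap. In Treg the Actn1 difference was -0.43 ± 0.13 (limma, adjusted p = 0.0263), and the arrays overlapped, at 8.23 to 9.11 in NOD and 8.41 to 9.42 in B6. The Treg call was lost with each array centred on its median (-0.37, adjusted p = 0.0604). It was also lost without B6 fusion Treg replicate 2 (-0.23, adjusted p = 0.0939), NOD fusion Treg replicate 2 (adjusted p = 0.0818), B6 ires Treg replicate 2 (adjusted p = 0.0987) or NOD ires Treg replicate 1 (adjusted p = 0.0954).

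Dapl1 fell in NOD cells of both types. NOD minus B6 was -0.51 ± 0.11 in Treg (limma, adjusted p = 0.00300) and -0.46 ± 0.11 in Tconv (limma, adjusted p = 0.00867). The Tconv level was 1.38-fold lower in NOD. Only 4 of the 8 Treg arrays passed the filter level of 6.06. The NOD Treg values, at 5.83 to 6.13, were under it or close to it, so no fold is given in Treg. By allele, the difference was -0.26 in Treg and -0.16 in Tconv of fusion mice, and -0.75 in Treg and -0.77 in Tconv of ires mice. The test of that difference between the alleles did not pass in Treg or Tconv, as given with the allele results. The 4 NOD and 4 B6 Tconv arrays did not overlap, while in Treg 1 B6 fusion array lay among the NOD arrays.

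Atp8b4, the P4-type ATPase, differed by -0.61 ± 0.11 in Treg (limma, adjusted p = 0.000826), with no overlap between the 4 NOD and the 4 B6 arrays. All 8 Treg values, at 4.26 to 5.32, were under the filter level of 6.06, and Atp8b4 was tested only because its Tconv values passed, so this difference is between low values and its size is uncertain. In Tconv its difference was -0.30 ± 0.11 (adjusted p = 0.0759), and with quantile normalization it passed the test (-0.39, adjusted p = 0.0341).

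For Igfbp4, Mctp2 and Vipr1 the background differences were small, and their SE bound what could have been seen. In Treg they were 0.00 ± 0.13 for Igfbp4 (adjusted p = 0.997), 0.14 ± 0.12 for Mctp2 (adjusted p = 0.408) and -0.07 ± 0.10 for Vipr1 (adjusted p = 0.637). In Tconv they were 0.19 ± 0.13 (adjusted p = 0.304), 0.13 ± 0.12 (adjusted p = 0.450) and 0.16 ± 0.10 (adjusted p = 0.248), in the same order of genes. The Igfbp4 value of 0.00 in Treg was a mean of 0.46 in fusion and -0.46 in ires mice. The second Vipr1 probe set gave 0.00 in Treg and 0.25 in Tconv.

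The background difference did not pass the test of a change between Treg and Tconv for any of the 6 genes (limma), and no member had an unadjusted p under 0.05. In that comparison 0.820% of all genes were called. Treg minus Tconv of the NOD minus B6 difference was -0.32 ± 0.16 for Atp8b4 (adjusted p = 0.538), 0.30 ± 0.18 for Actn1 (adjusted p = 0.674), -0.04 ± 0.15 for Dapl1, -0.18 ± 0.18 for Igfbp4, 0.01 ± 0.16 for Mctp2 and -0.23 ± 0.14 for Vipr1. Dapl1 and Mctp2 were the nearest to 0, with signs that turned under some of the alternative settings. Sequence differences between the strains under the probes were not examined.

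Other cell type markers also moved with the background. The summed level of the 5 Treg markers was 10643 to 12617 in NOD Treg and 12967 to 14888 in B6 Treg, and 579 to 996 in NOD Tconv and 518 to 647 in B6 Tconv. Of these 5 genes, 2 were called lower in NOD Treg and 3 higher in NOD Tconv. The NK, CD8 T and gamma-delta T cell sum was 498 to 637 in NOD Treg and 641 to 737 in B6 Treg, and 729 to 780 in NOD Tconv and 754 to 879 in B6 Tconv. In Treg the myeloid sum was 432 to 490 in NOD and 541 to 556 in B6, and the dendritic sum 433 to 508 in NOD and 562 to 760 in B6. The T cell sum was 6941 to 7864 in NOD Treg and 6231 to 6816 in B6 Treg, and 8012 to 8527 in NOD Tconv and 6626 to 7168 in B6 Tconv. The part of these cells in the lower Dapl1, Atp8b4 and Actn1 levels was not tested.

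**Figure D2:**
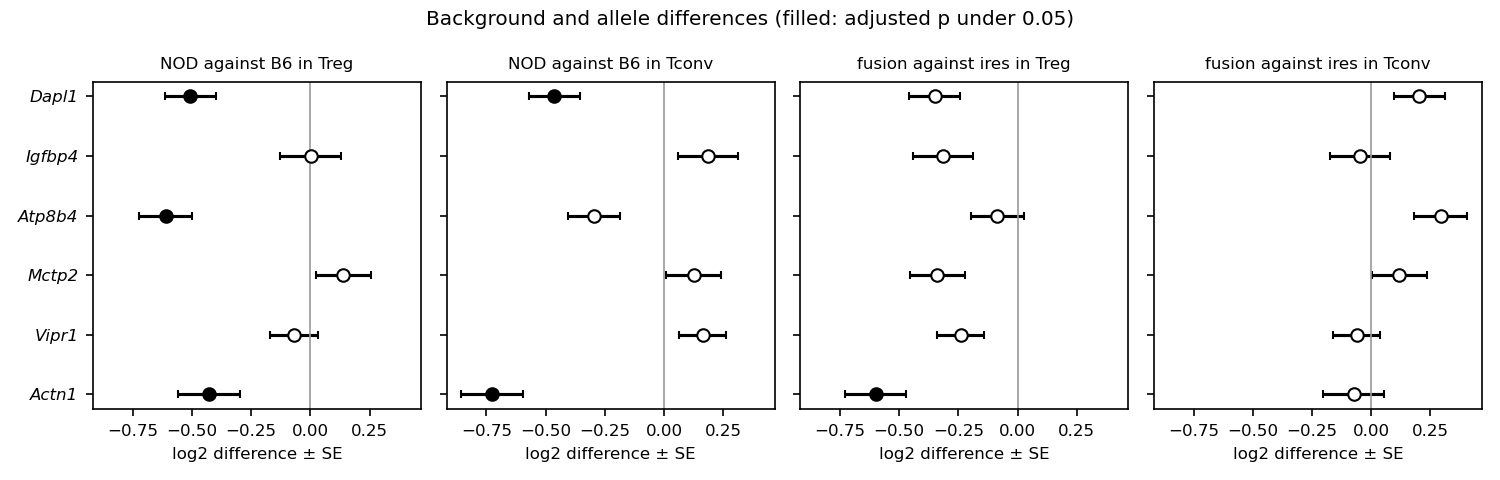
Log2 difference ± SE (limma, 16 arrays) of each gene for NOD minus B6 in Treg and in Tconv and for fusion minus ires in Treg and in Tconv; filled points passed an adjusted p of 0.05. Dapl1 and Actn1 are filled in both NOD panels, Atp8b4 in the Treg panel of NOD against B6, and Actn1 in the Treg panel of fusion against ires.

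Between the reporter alleles, all 6 genes had lower mean levels in fusion Treg than in ires Treg on their brightest probe set. Of all tested genes, 51.1% were lower in this way. Only Actn1 passed the test there. The second Vipr1 probe set gave 0.03 ± 0.08, so it did not share that direction. For Atp8b4 and Mctp2 the means are of values under the filter level on every Treg array. In fusion against ires Treg, 0.609% of all genes were called and 0.211% were called lower. The calls split into 51 higher and 27 lower as deposited and into 48 and 13 with each array centred on its median.

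Actn1 differed by -0.60 ± 0.13 between fusion and ires Treg (limma, adjusted p = 0.0443), 1.51-fold lower in fusion Treg, with -0.69 in NOD and -0.51 in B6. The 2 B6 fusion Treg arrays, at 8.41 and 9.22, were 0.81 apart, the widest gap between arrays of a group for any of the 6 genes. The SD of that gap over all genes was 0.251. The call rested close to the threshold. It was lost with no filter (adjusted p = 0.0620), with each array centred on its median (adjusted p = 0.0546), with every probe set tested on its own (adjusted p = 0.0525) and with line and replicate number as a random block (adjusted p = 0.0526). It was also lost when 1 of the arrays named next was left out. Omitting B6 fusion Treg replicate 1 left a difference of -0.40 (adjusted p = 0.137). The adjusted p was 0.0996 or 0.136 on omitting NOD fusion Treg replicate 1 or 2, and 0.0736 or 0.173 on omitting NOD ires Treg replicate 1 or 2. On omitting B6 ires Treg replicate 1 or 2 it was 0.0902 or 0.184, and on omitting NOD fusion Tconv replicate 1 or 2 it was 0.0519 or 0.0521.

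The other 5 genes did not pass the test between fusion and ires Treg. Their differences were -0.35 ± 0.11 for Dapl1 (adjusted p = 0.248), -0.34 ± 0.12 for Mctp2 (adjusted p = 0.323), -0.31 ± 0.13 for Igfbp4 (adjusted p = 0.515), -0.24 ± 0.10 for Vipr1 (adjusted p = 0.536) and -0.09 ± 0.11 for Atp8b4 (adjusted p = 0.986). By background, Igfbp4 (0.14 in NOD and -0.77 in B6) and Atp8b4 (0.11 in NOD and -0.28 in B6) were of mixed sign, and Atp8b4 turned positive (0.02) without NOD ires Treg replicate 2. The NK, CD8 T and gamma-delta T cell marker sum was 498 to 642 in fusion Treg and 601 to 737 in ires Treg. Its part in these values was not tested.

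In Tconv, where Foxp3 is low, 0.0234% of all genes and none of the 6 members were called between fusion and ires by limma. The differences were 0.29 ± 0.11 for Atp8b4, 0.20 ± 0.11 for Dapl1, 0.12 ± 0.12 for Mctp2, -0.05 ± 0.13 for Igfbp4, -0.06 ± 0.10 for Vipr1 and -0.07 ± 0.13 for Actn1, each with an adjusted p of 0.999. Atp8b4 alone had an unadjusted p under 0.05. The allele difference in Treg minus that in Tconv was negative for all 6 genes, as for 50.8% of all tested genes. It ran from -0.55 ± 0.15 for Dapl1 (limma, adjusted p = 0.364) and -0.53 ± 0.18 for Actn1 (limma, adjusted p = 0.834) to -0.18 ± 0.14 for Vipr1. The second Vipr1 probe set gave 0.06 ± 0.12. None of the 6 was called, beside 0.0469% of all genes. Dapl1, Atp8b4, Mctp2 and Actn1 had an unadjusted p under 0.05, and the share of all genes at that level was not counted. The Treg values of Atp8b4 and Mctp2 behind these differences were under the filter level on every array.

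Whether the allele difference itself changed with the background was asked in each cell type, and no member was called in either (limma), beside 0.0391% of all genes in Treg and 0.0391% in Tconv. In Treg, Igfbp4 had the largest value, with 0.14 for fusion minus ires in NOD and -0.77 in B6, a difference of 0.91 ± 0.25 (adjusted p = 0.744). In Tconv, Dapl1 had the largest, with 0.51 in NOD and -0.10 in B6, a difference of 0.61 ± 0.22 (adjusted p = 1.00). Both had an unadjusted p under 0.05, as did Dapl1 in Treg at 0.49 ± 0.22 (limma, adjusted p = 0.763). The share of all genes at that unadjusted level was again not counted.

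Once the mean of each cell type was taken out, the 6 genes no longer moved as one. Over all 16 arrays every pair of members had a Pearson r between 0.88 and 1.00, which the shared gap between Treg and Tconv fixes. After subtracting the mean of its cell type from each array, r over the 15 pairs ran from -0.22 to 0.86 with a median of 0.19. The highest were Dapl1 with Atp8b4 at 0.86, Dapl1 with Actn1 at 0.75 and Atp8b4 with Actn1 at 0.59. These are the 3 genes called lower in NOD Treg. Only cell type means were taken out, so the NOD to B6 difference that these genes share remains in their r. These values describe 16 arrays, each of which gave all 6 genes from 1 RNA sample, so errors of an array enter them together.

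**Figure D3:**
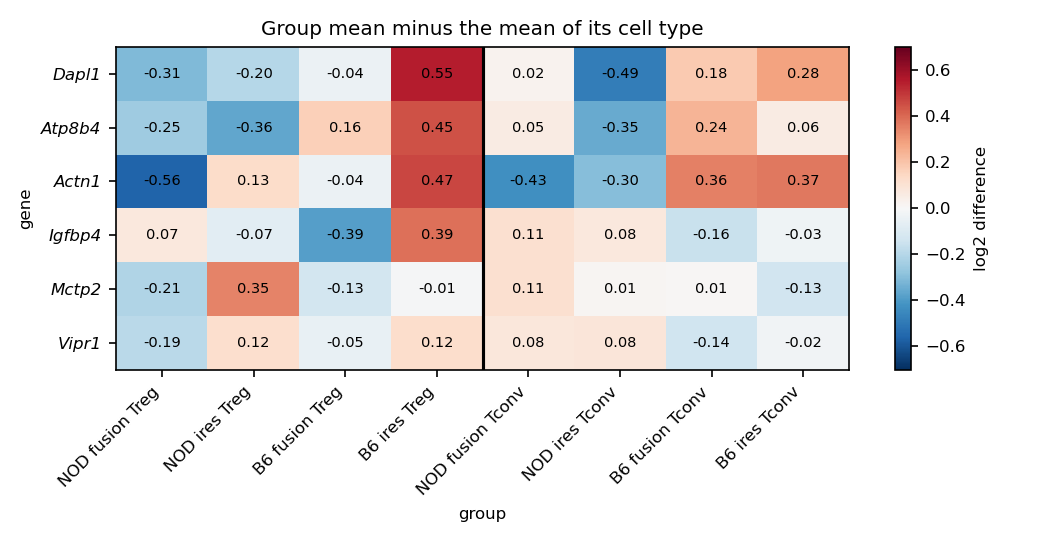
Mean log2 intensity of each of the 8 groups minus the mean of its cell type, with genes in rows, Treg groups on the left and Tconv groups on the right. Among Treg, Dapl1, Atp8b4, Actn1 and Igfbp4 are highest in B6 ires Treg, from 0.39 for Igfbp4 to 0.55 for Dapl1. Vipr1 is level in B6 ires and NOD ires Treg, at 0.12 in each, and Mctp2 is highest in NOD ires Treg, by 0.35. The Treg values of Atp8b4 and Mctp2 are under the filter level on every array.

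The tested genes most like each member over the 16 arrays were themselves lower in Treg. The gap between Treg and Tconv that chose the members largely fixes this, so it is a description. They were Atp8b4 (r = 0.996), Sema4a and Pde3b for Dapl1, and Fam78a (r = 0.992), Sema4a and Hid1 for Igfbp4. Atp8b4 was most like Dapl1, Mettl9 and Slc12a7, and Mctp2 was most like Slc16a5 (r = 0.992), Fam78a and Slc12a7. Vipr1 was most like Lypd6b (r = 0.995), Ggt5 and Hid1, and Actn1 was most like Man2a2 (r = 0.965), Dzip1 and Ugcg.

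With cell type means removed, other genes came first. For Dapl1 they were Ecm1 (r = 0.905), Cmtm3 and Galnt9. Ecm1 itself was higher in Treg, by 1.85. For Atp8b4 they were Cmtm3 (r = 0.874), Rrad and Dapl1. For Actn1 they were Gtpbp1 (r = 0.895), Pdlim1 (r = 0.894) and Zfp467, where Pdlim1 encodes a PDZ and LIM protein that binds alpha-actinin. Igfbp4 was nearest to Scarb1 (r = 0.800), Bcl2 and Maml3, Mctp2 to Alg9 (r = 0.854), Gna12 and Vezf1, and Vipr1 to Acod1 (r = 0.814), Nudt7 and Slpi. The background difference remains in these r too. Ecm1, Galnt9, Pdlim1 and Zfp467 were called lower in NOD in both cell types, Cmtm3 and Rrad in Treg alone and Gtpbp1 in Tconv alone. None of the genes nearest to Igfbp4, Mctp2 and Vipr1 was called between NOD and B6.

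None of the tested close relatives of the 6 genes was lower in Treg by more than 0.44 on the log2 scale. Of 17 paralogs, 9 passed the filter, of which 3 were called higher and 1 lower in Treg, with a median difference of 0.09. Over all tested genes, 28.6% were called in this contrast (16.7% as higher in Treg and 11.9% as lower), with a median of -0.01. Mctp1, the relative of Mctp2, rose in Treg by 1.90 ± 0.09 (limma, adjusted p = 1.29e-11), against -3.20 for Mctp2. Mctp1 ran from 6.79 to 7.30 in Treg and from 4.97 to 5.60 in Tconv, so its arrays were separated the other way round.

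Dap, the relative of Dapl1, fell in Treg, with a difference of -0.44 ± 0.06. The muscle isoform Actn2 and the broadly expressed Actn4 rose by 0.23 ± 0.06 and 0.20 ± 0.06, and the call of Actn4 was lost with each array centred on its median (adjusted p = 0.0962). Its call was also lost, with an adjusted p of up to 0.0681, when 1 array was left out: replicate 1 of NOD fusion Treg, NOD ires Treg or B6 fusion Tconv, or replicate 2 of B6 fusion Treg, B6 ires Treg, NOD fusion Tconv or NOD ires Tconv. Igfbp2, Igfbp7, Atp8b2, Atp8b3 and Adcyap1r1, the PACAP receptor gene, did not pass the test, at values between -0.09 and 0.17. Vipr2, the other VIP receptor gene, was under the filter.

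**Figure D4:**
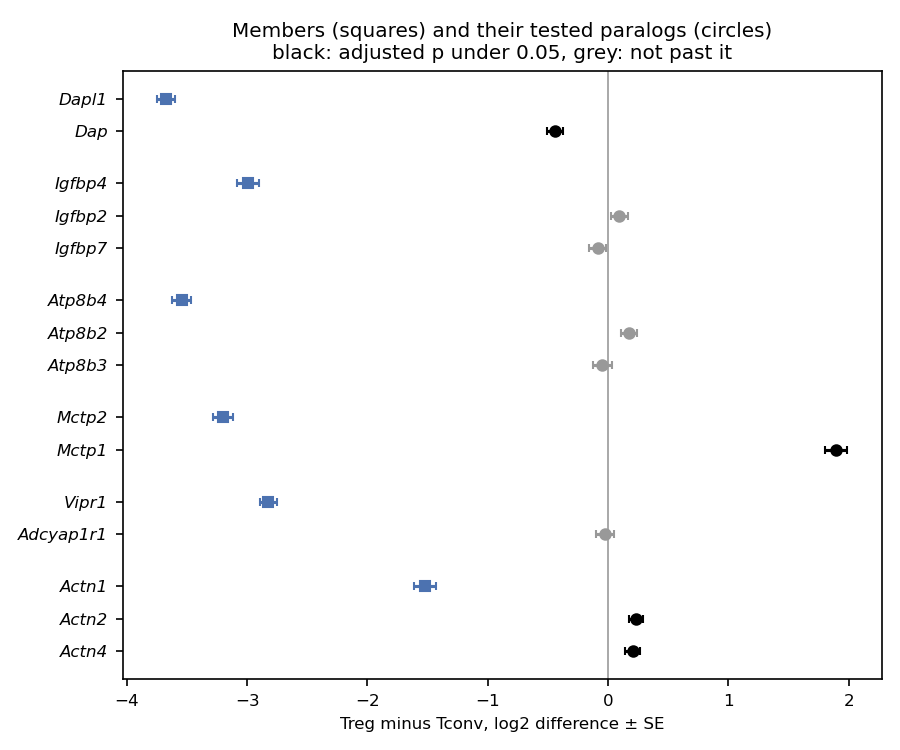
Treg minus Tconv log2 difference ± SE (16 arrays) of the 6 members (squares, with no test) and their 9 tested paralogs (circles, black where the adjusted p was under 0.05), grouped by family. Each member lies at -1.52 or below, while its paralogs lie between -0.44 and 1.90. The Treg values of Atp8b4 and Mctp2 and the Tconv values of Mctp1 are under the filter level on every array.

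Among the partners of Igfbp4 in the IGF system, both IGF receptor genes were higher in Treg. Of 12 genes, 7 were tested, with 3 higher, 1 lower and a median of 0.04. Igf1r, the IGF-1 receptor, rose in Treg by 1.41 ± 0.10 (limma, adjusted p = 1.29e-09), with arrays at 8.31 to 9.35 in Treg and 7.07 to 8.11 in Tconv. Igf2r, which clears IGF-2, rose by 0.72 ± 0.06 and Irs2, an adaptor of these receptors, by 0.20 ± 0.06, while Insr, the insulin receptor, fell, at -0.19 ± 0.05. The call of Irs2 was lost with each array centred on its median (adjusted p = 0.0819). Igf1, and Pappa and Pappa2, whose products are proteases that cleave IGF-binding proteins, were under the filter.

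Other flippases and the cyclic AMP pathway were split between the directions. Of 12 flippase and flippase partner genes, 9 were tested, with 3 higher, 3 lower and a median of 0.00. The 4 with the largest differences were Atp9a at 0.75 ± 0.07, Atp8a2 at -0.61 ± 0.09, Atp10d at 0.44 ± 0.05 and Atp10a at -0.42 ± 0.07. Of 16 genes of VIP ligands and cyclic AMP output, 11 were tested, with 4 higher, 4 lower and a median of 0.02, and with 2 higher and 4 lower when each array was centred on its median. Ramp3, a partner of class B receptors, fell in Treg, with a difference of -0.81 ± 0.08, and so did Adcy6, an adenylyl cyclase, at -0.62 ± 0.06. Prkar2b, a regulatory subunit of protein kinase A, rose by 0.41 ± 0.07 and Crem, a cyclic AMP responsive transcription factor, by 0.41 ± 0.08. The Tconv values of Prkar2b, at 5.37 to 6.02, were all under the filter level. The ligand genes Vip and Adcyap1 were under the filter.

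Among 16 partners of alpha-actinin and adhesion genes, 15 were tested, with 5 higher, 5 lower and a median of 0.09. Of the 5 lower, Ablim1 (-0.19 ± 0.07) was no longer called under 11 of the 26 alternatives run for it. Its call was lost with no filter (limma, adjusted p = 0.0690) and when certain single arrays were left out (adjusted p of up to 0.121). Pdlim4 and Pdlim1, whose LIM proteins bind alpha-actinin, fell in Treg, with differences of -1.78 ± 0.08 and -0.87 ± 0.08, as did Pdlim5 at -0.33 ± 0.06. The Pdlim genes did not all fall, since Pdlim2 was called higher in Treg (0.27 ± 0.06) and Pdlim7 was not called (0.01 ± 0.07). Itgb1, the beta-1 integrin, rose by 0.85 ± 0.09. Pdlim1 was also lower in NOD, by -0.75 ± 0.12 in Treg (limma, adjusted p = 0.000214) and -0.61 ± 0.12 in Tconv (limma, adjusted p = 0.00228), beside -0.43 and -0.73 for Actn1. Pdlim4 had a background difference that itself differed between Treg and Tconv, by -0.80 ± 0.16 (limma, adjusted p = 0.0204); the Actn1 value in that test was 0.30 ± 0.18.

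Of 12 genes of naive and central T cells, 10 were on the array and tested, with 2 higher, 8 lower and a median of -0.50. Of the 2, Foxo1 (0.21 ± 0.07) was no longer called with each array centred on its median (adjusted p = 0.0958). Nor was it, with an adjusted p of up to 0.0848, when 1 array was left out: replicate 1 of NOD fusion Treg, NOD ires Treg, B6 ires Treg, NOD fusion Tconv, NOD ires Tconv or B6 fusion Tconv, or replicate 2 of B6 fusion Treg or B6 ires Tconv. Ccr7, the lymph node homing receptor, fell in Treg, with a difference of -1.06 ± 0.07, as did Lef1 at -1.03 ± 0.07, Satb1 at -0.94 ± 0.07 and Il7r, the IL-7 receptor, at -0.82 ± 0.07. In NOD against B6 Treg, 6 of these 10 genes were higher and 2 lower, beside 11.2% and 9.82% of all tested genes.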

How the data were processed

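Gene expression of sorted Treg and Tconv was measured on 16 Affymetrix arrays, 2 in each of 8 groups. The authors' software was Affymetrix Power Tools with RMA, per the submitters' processing notes. Each deposited value is an intensity, on a linear scale, of 1 probe set. Neither the software versions nor the annotation's genome build is given in the sources used here. Array medians ran from 86.7 to 99.0, and precision is limited by how many arrays there were. The deposited intensities were turned into log2 values with no pseudocount.

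Of 25108 probe sets, 21157 had 1 gene symbol in the platform table, 1341 had several and 2610 had none. For each of the 19531 genes the probe set brightest on average was used. Genes above the 40th percentile (log2 6.06) on at least 2 arrays were tested, 12798 in all. With limma 3.58.1 in R 4.3.3, log2 values were fitted by the 8 group means (8 residual and 9.80 prior degrees of freedom). P-values were two-sided, and the Benjamini-Hochberg adjustment covered all 12798 genes, with a threshold of 0.05, and "called" means past it. The fit was tested on simulated data. Python 3.11.15 read the promoters from the RefSeq table, with pandas 2.3.3 and numpy 2.4.6, and drew the figures with matplotlib 3.10.9.

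The 6 members, the 6 lists of related genes and the 7 marker lists were chosen with earlier results of these data known. Named genes were the members, each called paralog, up to 4 genes of each other list with the largest differences, and the 3 genes most like each member. A few more related genes are named with their values known. Alternatives were quantile normalization or median centring of arrays, no filter or one at the 60th percentile, array weights, trend and robust variances, other uses of probe sets, replicate blocks, fewer groups in the fit, and each array left out in turn.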

Additional observations from a re-analysis of the deposited data

How the results depend on the processing

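The members' results were recomputed under 27 alternatives, 16 of them leaving out 1 array. The count of members called in fusion against ires Treg, 1 as reported, was 0 with no filter, with each array centred on its median, with every probe set on its own and with line and number as a random replicate block, and ran from 0 to 1 when 1 array was left out. The causes were not tested. The other counts of members called stayed within 1.5 times of the reported ones, with 2 to 3 for the NOD difference in each cell type. The median Treg minus Tconv difference of the members ran from -3.16 to -3.03, and Vipr1 was -2.12 as the mean of its 2 probe sets. The 6 directions between Treg and Tconv held under every alternative run. Same-numbered Treg and Tconv arrays correlated above 0.1 in 3 of 4 lines, with r from 0.08 to 0.40. Between any 2 groups r ran from -0.37 to 0.47, so these values do not settle whether the numbers mark pairs. The reported tests did not take them as pairs. With the random block (correlation 0.301), genes called among all tested numbered 306 for the background difference in Treg minus Tconv, against 105 without it, and 52 for the allele difference in Treg minus Tconv, against 6. That last count was 16 with the number as a fixed replicate block and 19 with trend and robust variances, and the fusion against ires count in Tconv was 6 with those variances, against 3. The counts for the allele difference in NOD minus B6, 5 in each cell type, were 2 in Tconv with only the groups compared, and in Treg 9 at the 60th percentile or with those variances, and 8 with quantile normalization or only the groups compared. Leaving out 1 array gave 839 to 2363 genes for NOD against B6 in Tconv (2033 as reported), 1594 to 3056 in Treg (2690) and 30 to 91 for fusion against ires in Treg (78). It gave 69 to 141 for the background difference in Treg minus Tconv, 2 to 18 for the allele difference in Treg minus Tconv, 2 to 11 for fusion against ires in Tconv, and 2 to 5 in Tconv and 3 to 8 in Treg for the allele difference in NOD minus B6. Of the related genes, 42 were called between Treg and Tconv, and 37 to 43 under the alternatives. Treg levels of Atp8b4 and Mctp2, under the filter level on every array, limit how well their differences are known.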
